A study of Mus musculus with 30 samples.

Results

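Integrins and the adhesion molecules they work with were followed from the circulation into the glioma-bearing brain. The genes were taken by name from the integrin, selectin and adhesion families, 32 in all, each of them among the 45317 genes of the count table, with no threshold on a measured value. Of the 32 genes, 27 had enough reads to enter the test, which covered 11566 genes. RNA was sequenced from 8 sorted populations of tumor-bearing mice. All cells came from C57BL6.CCR2RFP/WT mice aged 12 to 18 weeks, in which 1 copy of Ccr2 is replaced by a red fluorescent reporter, and every mouse carried an orthotopic tumor of the mouse glioma line GL261. The tumor cells carried a palmitoylated, membrane-bound GFP, so that a GFPpos host cell is one that had taken up or bound tumor membrane.

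The populations were Ly6Chigh and Ly6Clow blood monocytes (n = 3 each, mice 22, 23 and 24), GFPneg and GFPpos glioma monocytes (n = 3 each, mice 22, 24 and 26), GFPneg and GFPpos CCR2high macrophages, and GFPneg and GFPpos CCR2low macrophages (n = 4 each, mice 22, 23, 24 and 26). The model is limited to 1 tumor line, and mice without a tumor were not analysed here. The labels name brain as the tissue of every sample, blood monocytes included, so the compartment was read from the population names. Blood monocytes were gated on CD45, CD115 and Ly6C with low CD11c, and brain cells on high CD11b and CD45 together with F4/80, Ly6C, the CCR2 reporter and GFP. Since CD11b is the product of Itgam and CD11c that of Itgax, the sort itself bears on these 2 genes. Brain cells were released from the tissue with enzymes and blood cells were not, so entry into the brain and handling cannot be told apart.

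Integrins are receptors built from an α and a β chain that tie a cell to matrix or to proteins on another cell, and they must be switched on from inside the cell before they grip. In leukocytes leaving the blood, selectins and their mucin ligands slow the cell on the vessel wall, integrins of the β2 and α4 families arrest it on ICAM-1 and VCAM-1, and PECAM-1 and junctional adhesion molecules line the passage through the endothelium. Within tissue, other integrins hold macrophages to fibronectin, laminin, vitronectin and osteopontin. Monocytes, macrophages and microglia share many of these molecules, so that a transcript alone does not name the cell it came from.

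The replicates held 1553616 to 5689644 counts on genes. Markers of monocytes and macrophages were abundant in all 28 replicates, with a summed normalized read count (CPM, counts scaled to a common library size after trimmed-mean normalization) of 8771 to 39824 over 7 genes. Other cell types left transcripts as well. The 7 microglial markers summed to 23.8 to 132 CPM in blood, where Sall1 and Siglech were at 0, and to 1156 to 7254 CPM in the brain, with all 7 detected. The 8 endothelial markers summed to 17.4 to 46.8 CPM in blood, where Cdh5, Cldn5, Kdr, Tek, Egfl7 and Emcn were at 0 in all 6 replicates, and to 18.04 to 237 CPM in the brain. The 8 markers of T and NK cells summed to 22.8 to 156 CPM in Ly6Chigh monocytes, 632 to 1190.2 CPM in Ly6Clow monocytes and 244 to 1321 CPM in the brain. The corresponding ranges for 6 dendritic cell markers were 41.0 to 102, 213 to 250.03 and 202 to 883 CPM, with Siglech on both this list and the microglial one. For 5 B cell markers they were 58.7 to 110.1, 244 to 443 and 37.1 to 925 CPM, and for 6 neutrophil markers 252 to 1008, 46.5 to 176 and 5.15 to 1741 CPM. Markers of platelets (9 genes) summed to 0 to 61.8 CPM over all replicates, and those of astrocytes and oligodendrocytes (6 genes) to 239 to 625 CPM in blood, where Gfap, Aqp4 and Mog were at 0, and to 91.0 to 339 CPM in the brain. Mouse 26, from which no blood was sequenced, stood apart in the brain: its replicate was the highest in all 6 brain populations for 4.53% of the tested genes, against 0.536% for mouse 22 and 0.830% for mouse 24, the others with a replicate in all 6. Results that change without mouse 26 are given with that value. Among the blood replicates, Ly6Clow monocytes of mouse 23 stood apart, with 6475 genes at 5 or more reads and 13.3% of reads on spike-in RNAs, against 9078 to 10882 genes and 0.290% to 2.47% in the other 5, and results that rest on it are given with and without it. In bulk samples such as these, fewer cells of a type and less RNA per cell cannot be told apart.

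Per kilobase of exon, the leukocyte β2 chain Itgb2 had the highest mean of the 32 genes in every population, at 558 ± 6.64 CPM per kb (SD, n = 3) in Ly6Chigh blood monocytes and 340.5 ± 64.9 (n = 4) in GFPneg CCR2low macrophages, where Selplg (317 ± 118) lay within its SD. The genes next in order differed between the compartments. In Ly6Chigh blood monocytes they were the β7 chain Itgb7 (379 ± 78.9), the selectin ligand Selplg (293 ± 38.8), Itgam (148 ± 69.1) and Itgal (122 ± 27.5), an order in which the SDs of neighbors overlapped except between Itgb2 and Itgb7 and between Selplg and Itgam. In GFPneg CCR2high macrophages they were Selplg (261 ± 95.6) and the junctional adhesion molecule F11r (199.6 ± 50.3), which lay within the SD of Selplg. They were followed by Itgam (99.0 ± 51.6), Icam1 (92.1 ± 17.3), Itgb7 (87.5 ± 35.4) and Itgax (86.7 ± 22.9). The last 4 of these did not differ beyond their spread. By mean level, F11r ranked among the 3 highest members in 5 of the 6 brain populations, and was not among the 8 highest in either blood population.

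The largest differences lay between blood and brain. Against Ly6Chigh blood monocytes, 14 of the 27 members passed the test in GFPneg glioma monocytes (10 higher and 4 lower), 15 in GFPneg CCR2high macrophages (8 higher and 7 lower) and 16 in GFPneg CCR2low macrophages (8 higher and 8 lower). Calls were made with the quasi-likelihood test of edgeR at a Benjamini-Hochberg adjusted p under 0.05. The same rule called 13.8% of all tested genes in the first comparison (11.1% higher and 2.68% lower), 17.8% in the second (12.7% and 5.14%) and 20.2% in the third (14.1% and 6.09%). The median log2 fold change of the members was 0.28, -0.33 and -0.42, beside 0.12, 0.15 and 0.17 for all tested genes. Folds and log2 fold changes are those of the fit unless given as a lower bound, which is a mean CPM over the floor in blood. The 3 comparisons share the same 3 Ly6Chigh replicates and are not independent of each other. Scaled to the spike-in RNAs instead, 3 (2 higher), 6 (5 higher) and 5 (4 higher) members were called, all of them among those of the first scaling, beside 3.44%, 4.52% and 5.11% of all tested genes, and the median of all genes became -0.04, 0.15 and 0.01. In all 3 comparisons, Vcam1, Itga9, Itga6, Itgae, Itgax, F11r, Itgb5 and Pecam1 were higher in the brain than in Ly6Chigh monocytes. Ceacam1, Itga4, Itgal and Spn were lower. Of these 12 calls, Vcam1, F11r and Ceacam1 were held in all 3 comparisons under the spike-in scaling as well. Ly6Clow monocytes were not tested against the brain populations. Their means of Pecam1, Itgax and Itga6 (56.3, 248 and 13.8 CPM) lay above those of GFPneg glioma monocytes (39.9, 179 and 10.6 CPM). Those of Vcam1, Itga9, Itgae, F11r and Itgb5 lay below.

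**Figure D1:**
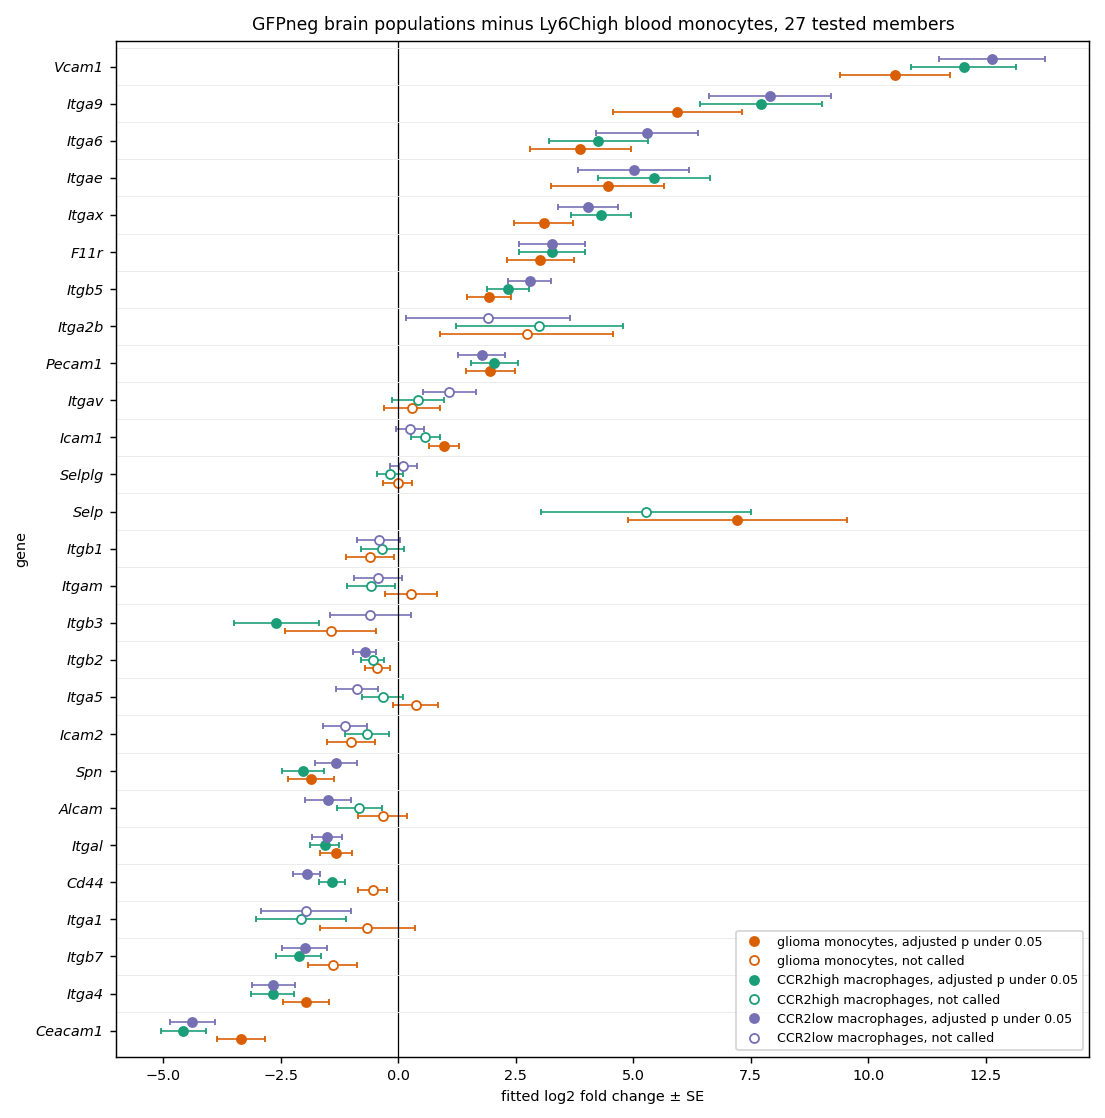
Fitted log2 fold change (x axis) with its standard error for each tested member (y axis) in the 3 GFPneg brain populations minus Ly6Chigh blood monocytes. Filled points passed at an adjusted p under 0.05. Vcam1 lies farthest to the right and Ceacam1 farthest to the left, and values of genes at 0 in blood (Vcam1, Itga9, Selp) depend on the prior count of the fit. Selp has no point for CCR2low macrophages, where it was at 0 as in Ly6Chigh monocytes.

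Of the ligands of the immunoglobulin superfamily, Vcam1 changed most. VCAM-1 is the counter-receptor of α4β1 and is best known from inflamed endothelium. Not 1 read of Vcam1 was found in the 6 blood replicates, where 3 counts per replicate is the limit that a count of 0 allows. GFPneg glioma monocytes held 60.2, 48.7 and 94.8 CPM, GFPneg CCR2high macrophages 91.5, 180.3, 115 and 357 CPM and GFPneg CCR2low macrophages 231, 153, 151 and 606 CPM (values are given in the order of the mouse numbers). All 22 brain replicates lay above blood, and mouse 26 was highest in each of these 3 populations. Against the floor of 3 counts per blood replicate, the mean was at least 50.1-fold, 137-fold and 210.3-fold higher (edgeR adjusted p = 1.1e-06, 8.48e-08 and 4.11e-08). Without the CCR2low macrophages of mouse 26 the last of these bounds was 131-fold. The gene (chr3:116109949-116129688 on GRCm38, minus strand) shares 61 bases of exon with a gene model on the other strand. Whether the counting used strand is not given in the sources used here, so for this and the other opposite-strand overlaps named below the reads of both genes cannot be told apart. Microglial markers were higher in the same populations without overlap, endothelial markers were higher with overlap outside the glioma monocytes, and their part in the level of Vcam1 was not tested.

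F11r encodes JAM-A, a tight-junction protein that also serves leukocytes crossing endothelium. It measured 73.0, 83.2 and 11.3 CPM in Ly6Chigh blood monocytes and 527, 471 and 343 CPM in GFPneg glioma monocytes. In GFPneg CCR2high and CCR2low macrophages it measured 722, 450.4, 526 and 427 CPM and 597, 406, 726 and 389 CPM. The groups did not overlap with Ly6Chigh monocytes, and the fitted folds over Ly6Chigh monocytes were 8.11 to 9.64 (log2 fold change 3.02, 3.27 and 3.26, SE 0.71, 0.70 and 0.70; edgeR adjusted p = 0.00433, 0.0014 and 0.00128). Across both blood populations 1 replicate, Ly6Clow monocytes of mouse 23 at 279.9 CPM, reached the lowest brain replicate at 275 CPM. F11r lies at chr1:171437535-171464603, plus strand. Microglia also carry JAM-A, and the part of the microglial markers above was not tested.

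Pecam1, the homophilic CD31 of endothelium, platelets and leukocytes, measured 13.5, 12.3 and 5.43 CPM in Ly6Chigh monocytes and rose to 39.9 ± 10.3, 42.1 ± 11.3 and 35.1 ± 7.29 CPM (SD, n = 3, 4 and 4) in the 3 GFPneg brain populations (edgeR adjusted p = 0.0111, 0.00456 and 0.0115). Icam1, a ligand of the β2 integrins, measured 265, 309.9 and 231 CPM in Ly6Chigh monocytes and 533, 717 and 328 CPM in GFPneg glioma monocytes, 1.96-fold higher in the fit (edgeR adjusted p = 0.0426), and 402 ± 75.3 and 319 ± 39.4 CPM in the GFPneg macrophages, where it did not pass (adjusted p = 0.2 and 0.641). A gene model on the opposite strand shares 511 bases with an Icam1 exon. Alcam, which binds CD6 on T cells, fell from 36.2 ± 17.2 to 12.99 ± 6.20 CPM in GFPneg CCR2low macrophages (edgeR adjusted p = 0.0295), and measured 29.0 ± 8.49 and 20.5 ± 2.62 CPM in the other two populations, where it did not pass.

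Ceacam1, a homophilic adhesion molecule with an inhibitory tail, showed the steepest fall of the members tested. The gene lies at chr7:25461707-25477603. Ly6Chigh blood monocytes held 717, 439 and 428 CPM and Ly6Clow monocytes 503, 460.4 and 1286 CPM. GFPneg glioma monocytes held 45.6, 77.6 and 32.9 CPM, and GFPneg CCR2high and CCR2low macrophages 33.4, 19.9, 16.2 and 20.1 CPM and 16.5, 15.8, 56.4 and 12.7 CPM. The highest of the 22 brain replicates (77.6 CPM) lay well under the lowest of the 6 blood replicates (428 CPM). The fall from Ly6Chigh monocytes was 10.1-fold, 23.7-fold and 20.8-fold (log2 fold change -3.34, -4.57 and -4.38, SE 0.51, 0.48 and 0.48; edgeR adjusted p = 4.06e-05, 1.41e-07 and 2.14e-07). Ceacam1 resembles its neighbor Ceacam2 in sequence, so its counts are uncertain where reads fit both genes. Neutrophils also carry CEACAM1. Their 6 markers summed to 252 to 1008 CPM in Ly6Chigh monocytes and 10.1 to 1193 CPM in the 3 GFPneg brain populations, ranges that overlap, and their part in the result was not tested.

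**Figure D2:**
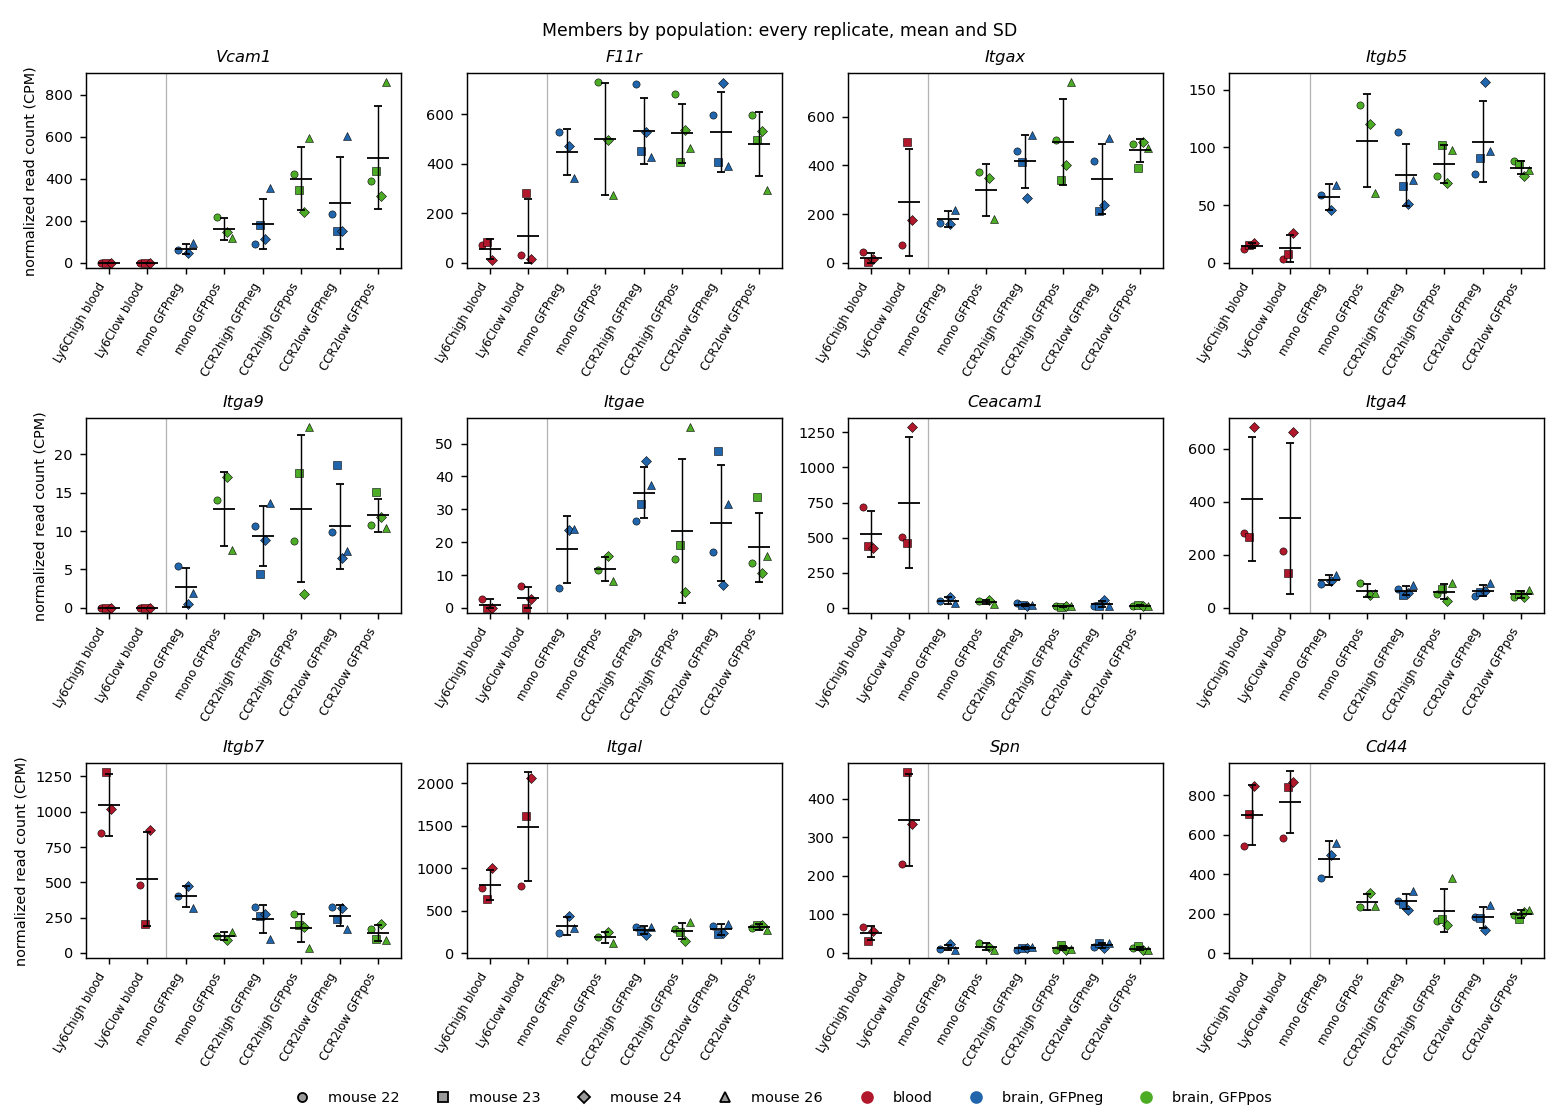
Normalized read count (CPM, y axis, linear) of 12 members in the 8 populations (x axis), with 1 point per replicate, its shape giving the mouse, and the mean with its SD (lower bar cut at 0). Vcam1 and Itga9 are at 0 in all blood replicates and detected in all brain replicates, Ceacam1, Itga4 and Itgal are high in blood and low in the brain, and Spn is highest in Ly6Clow blood monocytes.

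The β2 integrins are the arrest and phagocytic receptors of leukocytes, and their genes moved apart from one another. Itgal (chr7:127296260-127335138), the αL chain of LFA-1, measured 762, 641 and 997 CPM in Ly6Chigh and 788, 1619 and 2058 CPM in Ly6Clow blood monocytes. In GFPneg glioma monocytes it measured 232, 433 and 292 CPM, and in all 22 brain replicates 117 to 433 CPM, below every blood replicate. The fall from Ly6Chigh monocytes was 2.51 to 2.96-fold in the 3 GFPneg populations (log2 fold change -1.33, -1.56 and -1.52, SE 0.34, 0.31 and 0.31, edgeR adjusted p = 0.00881, 0.0007 and 0.00085).

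Itgax (chr7:128129547-128150657), the αX chain known as CD11c, went the other way. It measured 43.3, 2.93 and 16.9 CPM in Ly6Chigh monocytes, 162, 158 and 217 CPM in GFPneg glioma monocytes, 459, 415, 266 and 526 CPM in GFPneg CCR2high macrophages and 417, 212, 237 and 513 CPM in GFPneg CCR2low macrophages. The brain populations did not overlap with Ly6Chigh monocytes and the fitted folds were 8.54, 19.9 and 16.4 (log2 fold change 3.09, 4.31 and 4.04, SE 0.62, 0.64 and 0.63; edgeR adjusted p = 0.000919, 1.9e-05 and 3.35e-05). Without Ly6Chigh monocytes of mouse 22, the highest of the 3, the log2 fold changes were 3.98, 5.19 and 4.92. Blood monocytes were sorted for low CD11c and brain cells were not, and dendritic cell markers summed to 343 to 883 CPM in these brain populations against 41.0 to 102 CPM in Ly6Chigh monocytes, so the sort and the compartment cannot be told apart for this gene.

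Itgam, the αM chain of Mac-1, did not pass in any of the 10 comparisons. Its values ran from 308 to 1144 in the 6 blood replicates and 271 to 1650.5 in the 22 brain replicates (CPM), and the 95% interval of the log2 fold change from Ly6Chigh monocytes was -0.86 to 1.41 for GFPneg glioma monocytes and -1.48 to 0.63 for GFPneg CCR2low macrophages, so that a rise of over 2-fold in the former and a fall of over 2-fold in the latter lay within these intervals. High CD11b was itself a condition of the brain sort. In GENCODE vM21 a gene model on the same strand shares 210 bases with an Itgam exon. If the annotation of the counting also held that model, which was not checked, reads there would have been set aside as ambiguous. The common β chain Itgb2 measured 1693, 1692 and 1727 CPM in Ly6Chigh monocytes and 1146, 962, 801 and 1248 CPM in GFPneg CCR2low macrophages, 1.64-fold lower in the fit (edgeR adjusted p = 0.0376), and did not pass in the other two GFPneg populations (adjusted p = 0.318 and 0.129). Itgad, the fourth α chain of this family, held at most 3.61 CPM and was not tested.

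The balance of α chains per kilobase summarizes these shifts. In Ly6Chigh blood monocytes Itgal made up 45.5% ± 5.57 (SD, n = 3) of the reads per kb on the 4 α chains, Itgam 52.8% ± 7.06 and Itgax 1.71% ± 1.95. In Ly6Clow monocytes the shares were 57.0% ± 4.27, 30.8% ± 5.14 and 12.2% ± 8.53, and in GFPneg glioma monocytes 21.2% ± 11.6, 63.3% ± 14.6 and 15.4% ± 4.07. In GFPneg CCR2high macrophages Itgax reached 39.0% ± 4.28 (n = 4), beside 19% ± 3.37 for Itgal. The highest Itgal share of a brain replicate, 33.6%, lay below the lowest of a blood replicate, 39.6%. These shares describe transcripts, and were not tested beyond the tests of the single genes.

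**Figure D3:**
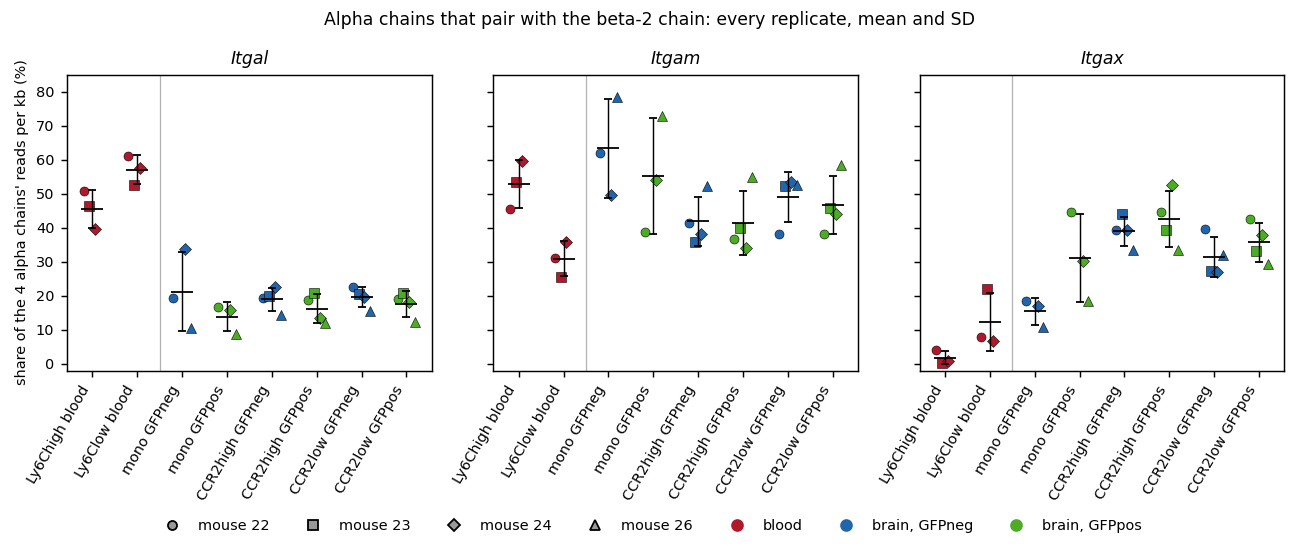
Share (y axis, percent) of the reads per kb on Itgal, Itgam, Itgax and Itgad taken by each of the first 3 in the 8 populations (x axis), with 1 point per replicate and the mean with its SD. The mean share of Itgal is 45.5% and 57.0% in blood and 13.8% to 21.2% in the brain, that of Itgax reaches 42.5% in GFPpos CCR2high macrophages, and Itgam spreads widely within populations.

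Among the β1 integrins, which bind matrix and VCAM-1, Itga4 fell and Itga6 and Itga9 rose. Itga4 (chr2:79255426-79333123), the α chain of VLA-4, measured 283, 268 and 682 CPM in Ly6Chigh monocytes, 90.3, 102 and 126 CPM in GFPneg glioma monocytes, 69.4, 47.3, 54.4 and 87.8 CPM in GFPneg CCR2high and 45.1, 58.7, 63.4 and 94.9 CPM in GFPneg CCR2low macrophages. All 22 brain replicates (26.5 to 126 CPM) lay below the 6 blood replicates (133 to 682 CPM), and the fall from Ly6Chigh monocytes was 3.88-fold, 6.36-fold and 6.28-fold (log2 fold change -1.96, -2.67 and -2.65, SE 0.50, 0.46 and 0.46, edgeR adjusted p = 0.00777, 0.000121 and 0.000116). The end of Itga4 overlaps Cerkl on the opposite strand over 905 bases. Thus the receptor chain was lower in the same populations in which its ligand Vcam1 was detected.

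Itga9, whose receptor binds tenascin, osteopontin and VCAM-1, was at 0 in all 6 blood replicates and measured 5.52, 0.535 and 1.94 CPM in GFPneg glioma monocytes, 10.7, 4.41, 8.82 and 13.7 CPM in GFPneg CCR2high and 9.91, 18.6, 6.48 and 7.38 CPM in GFPneg CCR2low macrophages. Against the floor of 3 counts per blood replicate it was at least 6.94-fold and 7.81-fold higher in the macrophages (edgeR adjusted p = 0.000166 and 0.000114). It was also called in glioma monocytes (adjusted p = 0.00452), where the mean was 1.96 times the floor and, without mouse 22, 0.911 times the floor (adjusted p = 0.0389), so that no lower bound is given there. These are low levels, under 25 CPM in every replicate. The laminin receptor chain Itga6 was also low, at 0, 0 and 1.46 CPM in Ly6Chigh monocytes, where 2 replicates had no read and the third 7 reads, and at 10.6 ± 5.83, 13.7 ± 12.2 and 28.3 ± 16.1 CPM in the GFPneg brain populations (log2 fold change 3.87, 4.26 and 5.29, SE 1.08, 1.05 and 1.08, edgeR adjusted p = 0.0151, 0.00479 and 0.000767). Microglia are known to carry Itga6, and so is endothelium, and the markers of both had higher medians in the 3 GFPneg brain populations, with overlap for the endothelial ones in the macrophages. Their part in these results was not tested.

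The common chain Itgb1 and the fibronectin receptor chain Itga5 were present throughout and did not pass in any comparison. Itgb1 ran from 195 to 435 in the 6 blood replicates and 96.6 to 431 in the 22 brain replicates, and Itga5 from 41.5 to 223 in the 6 blood replicates and 31.0 to 252 in the 22 brain replicates. The collagen receptor chain Itga1 measured 11.8, 36.9 and 58.7 CPM in Ly6Chigh monocytes and 8.53 ± 4.30 and 9.26 ± 7.63 CPM in GFPneg CCR2high and CCR2low macrophages. It did not pass there (edgeR adjusted p = 0.148 and 0.164), whereas with the mouse as a replicate block it was called lower in both (log2 fold change -2.40 and -2.47, adjusted p = 0.0312 and 0.0246). A same-strand gene model shares 451 bases with its exons. Itga2, Itga3 and Itga7 held at most 6.22, 4.89 and 8.39 CPM in any replicate and were not tested.

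The 2 genes of the β7 family changed in opposite directions. Itgb7, whose chain pairs with α4 for homing to gut endothelium and with αE for binding E-cadherin, measured 847, 1281 and 1022 CPM in Ly6Chigh monocytes. It measured 406, 474 and 319 CPM in GFPneg glioma monocytes, 328, 262, 277 and 102 CPM in GFPneg CCR2high and 328, 239, 321 and 169.8 CPM in GFPneg CCR2low macrophages. The replicates did not overlap with Ly6Chigh monocytes in any of the 3, and the fall passed in the macrophages (4.34-fold and 3.97-fold, log2 fold change -2.12 and -1.99, SE 0.48 and 0.48, edgeR adjusted p = 0.00228 and 0.00351) and missed the threshold in glioma monocytes (log2 fold change -1.39, SE 0.52, adjusted p = 0.0763), where it was called by DESeq2 (adjusted p = 0.0477) and with the compared populations fitted alone (adjusted p = 0.00239). Its partner Itgae was near 0 in Ly6Chigh monocytes, at 2.81, 0 and 0 CPM. It measured 6.02, 23.6 and 23.9 CPM in GFPneg glioma monocytes, 26.5, 31.5, 44.6 and 37.5 CPM in GFPneg CCR2high and 17.1, 47.7, 6.94 and 31.6 CPM in GFPneg CCR2low macrophages. Itgae thus rose in all 3 (log2 fold change 4.46, 5.44 and 5.01, SE 1.20, 1.20 and 1.18, edgeR adjusted p = 0.0121, 0.00175 and 0.00304). Itgae is a marker of tissue T cells and of a dendritic cell subset, and the markers of both were higher in the GFPneg brain populations than in Ly6Chigh monocytes, with no overlap (T and NK cells 392 to 1321 against 22.8 to 156 CPM). Their part was not tested.

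Of the αv and platelet integrins, Itgb5 alone rose in all 3 comparisons. The β5 chain joins αv in a vitronectin receptor that also takes part in the uptake of dying cells. Itgb5 (chr16:33829665-33949338) measured 12.4, 15.2 and 17.1 CPM in Ly6Chigh monocytes, 58.7, 45.5 and 67.7 CPM in GFPneg glioma monocytes, 114, 66.8, 50.9 and 71.8 CPM in GFPneg CCR2high and 76.5, 90.4, 156 and 96.5 CPM in GFPneg CCR2low macrophages. Every brain replicate lay above every blood replicate, and the fitted folds over Ly6Chigh monocytes were 3.81, 5.03 and 6.98 (log2 fold change 1.93, 2.33 and 2.80, SE 0.46, 0.45 and 0.46; edgeR adjusted p = 0.00478, 0.000459 and 6.01e-05). Its partner Itgav stayed between 7.61 and 49.6 CPM over all 28 replicates and did not pass in any comparison. An Itgav exon shares 634 bases with a gene model on the opposite strand. Microglia are also known for Itgb5, and the part of their markers was not tested. The β3 chain Itgb3 was low, at 15.7, 7.03 and 46.0 CPM in Ly6Chigh monocytes and 6.31, 2.21, 1.96 and 5.03 CPM in GFPneg CCR2high macrophages, a fall (log2 fold change -2.59, SE 0.90) with an edgeR adjusted p of 0.0464. The platelet chain Itga2b reached 14.3 CPM at most and did not pass, and Itgb8, at most 5.95 CPM, was not tested.

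Of the selectin, its ligand and the mucins, Spn and Cd44 fell. Spn encodes CD43, a sialomucin that keeps cells apart and that marks patrolling monocytes in the mouse. It measured 66.3, 30.5 and 55.8 CPM in Ly6Chigh monocytes, 11.04, 22.5 and 8.39 CPM in GFPneg glioma monocytes, 8.20, 13.8, 11.8 and 15.3 CPM in GFPneg CCR2high and 15.4, 24.8, 13.9 and 26.9 CPM in GFPneg CCR2low macrophages, 3.62-fold, 4.09-fold and 2.51-fold lower (log2 fold change -1.86, -2.03 and -1.33, SE 0.49, 0.45 and 0.44, edgeR adjusted p = 0.0112, 0.00172 and 0.0329). The highest brain replicate, at 26.9 CPM, lay under the lowest blood replicate, at 30.5 CPM. The hyaluronan receptor Cd44 measured 545, 706 and 846 CPM in Ly6Chigh monocytes, 379.7, 499 and 559 CPM in GFPneg glioma monocytes, 267, 251, 219 and 314 CPM in GFPneg CCR2high and 184, 178, 118 and 246 CPM in GFPneg CCR2low macrophages. It fell 2.66-fold and 3.85-fold in the macrophages (log2 fold change -1.41 and -1.94, SE 0.28 and 0.28, edgeR adjusted p = 0.000592 and 1.26e-05) and did not pass in glioma monocytes (log2 fold change -0.55, adjusted p = 0.274).

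Selplg, the P-selectin ligand PSGL-1, was high in all populations (1072 to 1646 in the 6 blood replicates and 667 to 2103 in the 22 brain replicates) and did not pass in any comparison. The 95% interval of its log2 fold change in GFPneg glioma monocytes was -0.63 to 0.61, within 2-fold in either direction. P-selectin itself, Selp, was at 0 in Ly6Chigh monocytes and measured 1.003, 5.35 and 13.5 CPM in GFPneg glioma monocytes, at least 4.89-fold higher (edgeR adjusted p = 0.0432), a call that was lost with the mouse as a replicate block (adjusted p = 0.057). Its level rested on mice 24 and 26, and without mouse 26 the bound was 2.34-fold. Endothelium and platelets are the usual sources of P-selectin. In GFPneg glioma monocytes the endothelial markers summed to 92.6 to 226 CPM and the platelet markers to 1.505 to 46.5 CPM, and their part was not tested. A gene model on the opposite strand shares 325 bases with an exon of Selp.

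Leaving out single replicates ended 8 of the 14 calls in glioma monocytes at least once. Icam1 and Selp were lost in 5 of 6 such fits, Icam1 without any single Ly6Chigh replicate or glioma monocytes of mouse 22 or 24 (adjusted p up to 0.282), and Selp without any Ly6Chigh replicate or glioma monocytes of mouse 24 or 26 (up to 0.16). Without Ly6Chigh monocytes of mouse 24, Itga4, Itgal, Itgae and Pecam1 were lost as well. Itgae was also lost without mouse 23 and Itga6 without mouse 22 or 23 of the Ly6Chigh monocytes, and Itgal and Spn without mouse 22, Itga6 without mouse 24, and Pecam1 and Spn without mouse 26 of the glioma monocytes. The highest adjusted p of Itga4, Itgal, Itgae, Pecam1, Itga6 and Spn in these fits was 0.1, 0.0575, 0.0824, 0.0868, 0.0783 and 0.0617. In CCR2high macrophages Itgb3 alone was lost, in every such fit but the one without Ly6Chigh monocytes of mouse 23 (up to 0.364). In CCR2low macrophages Pecam1 was lost without Ly6Chigh monocytes of mouse 24 (adjusted p = 0.0925), and Alcam without that replicate or macrophages of mouse 22 or 23 (up to 0.214). Spn was lost there without Ly6Chigh monocytes of mouse 22 or 24 or macrophages of mouse 22 or 24 (up to 0.112), and Itgb2 without any Ly6Chigh replicate or macrophages of mouse 23 or 24 (up to 0.116). Vcam1, F11r, Ceacam1, Itgax, Itgb5 and Itga9 kept their calls in all 3 comparisons whichever replicate was left out. Some values moved by over 1.5 times. Without Ly6Chigh monocytes of mouse 24, the log2 fold change of Itgae was 3.60, 4.58 and 4.15 in the 3 comparisons, and that of Itgb3 in CCR2high macrophages -1.57. Itga6 without that replicate and Itgae without Ly6Chigh monocytes of mouse 22 had no read left in Ly6Chigh monocytes. Without the replicate of mouse 26, Itga6 in CCR2high macrophages had a log2 fold change of 3.42, and without that of mouse 24, Ceacam1 in CCR2low macrophages one of -5.15. Without mouse 26 in any population, Itgae, Pecam1, Selp and Spn were lost in glioma monocytes (adjusted p = 0.0577, 0.0619, 0.154 and 0.0643) and Itgb3 in CCR2high macrophages (adjusted p = 0.0763), an alternative chosen after seeing the data.

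Over the 8 populations, 4.75% of the tested genes were higher in every one of the 22 brain replicates than in the 6 blood replicates, and 1.58% were lower in every one. Of the members, 3 were higher (Vcam1, Itga9 and Itgb5) and 5 lower (Ceacam1, Itga4, Itgal, Spn and Icam2). Icam2, the second ligand of LFA-1 in this list, ran from 31.5 to 194 in the 6 blood replicates and 3.62 to 26.3 in the 22 brain replicates, and its brain populations did not pass against Ly6Chigh monocytes alone (edgeR adjusted p = 0.227, 0.376 and 0.0898). A test for any difference among the 8 populations called 19 of the 27 members, and 25.1% of all tested genes.

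The promoters of members that moved the same way in all 3 comparisons are shown to let their sequences be read side by side. A promoter here is the stretch from 250 bases before to 50 bases after the start of the gene in RefSeq (GRCm38.p6). Of the 32 members 21 have an entry, and of the 12 members that moved the same way in all 3 comparisons 7 have one. Capitals mark the letters of 3 short motifs searched on both strands: AGGAAG, the core bound by ETS factors such as PU.1, which myeloid cells depend on; TGTGGT, the core bound by RUNX factors; and GGGCGG, the GC box bound by SP and KLF factors. Of 32851 promoters in the table, 35.4% hold the first, 16.8% the second and 35.7% the third. Those higher in the brain are Itgax (chr7:128129300-128129599, plus strand), with 1 RUNX core, Itgb5 (chr16:33829415-33829714, plus strand), with 3 GC boxes, and F11r (chr1:171437311-171437610, plus strand), with 1 GC box.
Itgax: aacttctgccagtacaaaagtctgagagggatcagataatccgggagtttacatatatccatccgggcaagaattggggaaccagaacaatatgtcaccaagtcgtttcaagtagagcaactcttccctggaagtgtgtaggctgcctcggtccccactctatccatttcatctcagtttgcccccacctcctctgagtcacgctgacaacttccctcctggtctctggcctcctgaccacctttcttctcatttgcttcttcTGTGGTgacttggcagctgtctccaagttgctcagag
Itgb5: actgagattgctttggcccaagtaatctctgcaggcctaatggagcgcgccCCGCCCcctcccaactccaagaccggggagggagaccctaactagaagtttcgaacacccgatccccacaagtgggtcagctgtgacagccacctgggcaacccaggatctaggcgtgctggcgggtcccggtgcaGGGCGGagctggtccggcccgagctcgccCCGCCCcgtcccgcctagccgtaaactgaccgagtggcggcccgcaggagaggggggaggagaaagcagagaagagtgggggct
F11r: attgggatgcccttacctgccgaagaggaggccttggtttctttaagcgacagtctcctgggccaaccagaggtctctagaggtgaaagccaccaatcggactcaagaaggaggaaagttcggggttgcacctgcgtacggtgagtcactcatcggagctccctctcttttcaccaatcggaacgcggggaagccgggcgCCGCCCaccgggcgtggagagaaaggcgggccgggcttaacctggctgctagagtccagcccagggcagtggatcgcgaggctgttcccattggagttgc
Those lower in the brain are Spn (chr7:127137774-127138073, minus strand), with an ETS core on each strand, and Itga4 (chr2:79255176-79255475, plus strand), with 1 GC box and 1 RUNX core.
Spn: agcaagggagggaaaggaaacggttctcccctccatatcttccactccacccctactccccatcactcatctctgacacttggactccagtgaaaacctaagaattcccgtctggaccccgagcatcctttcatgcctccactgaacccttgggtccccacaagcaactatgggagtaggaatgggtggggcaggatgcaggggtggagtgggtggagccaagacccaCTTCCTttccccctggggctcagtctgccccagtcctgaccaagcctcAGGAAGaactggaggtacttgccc
Itga4: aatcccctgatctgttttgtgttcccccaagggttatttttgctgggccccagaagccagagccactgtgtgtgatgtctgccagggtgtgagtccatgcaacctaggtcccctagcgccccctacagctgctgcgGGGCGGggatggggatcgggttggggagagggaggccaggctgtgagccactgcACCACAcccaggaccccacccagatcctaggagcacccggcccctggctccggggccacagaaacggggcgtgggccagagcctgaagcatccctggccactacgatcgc
No 2 motif letters overlapped in these stretches. The windows of Ceacam1 (chr7:25477576-25477875, minus strand) and Itga9 (chr9:118711442-118711741, plus strand) hold none of the 3 motifs, and that of Itga9 lies within the gene as GENCODE annotates it (chr9:118606690-118901003), away from its 5′ end. Over the 22 entries of the 21 members, 12 hold the ETS core, 3 the RUNX core and 13 the GC box. Among the 7, the GC box and the RUNX core each occurred in genes that rose and in Itga4, which fell, and the ETS core in Spn alone. A match describes letters only, not a site in use.

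Within the blood, all 5 members that passed between the Ly6Chigh (classical) and Ly6Clow (patrolling) monocytes were higher in the Ly6Clow cells. The same rule called 5.61% of all tested genes, 3.65% as higher in Ly6Clow cells and 1.96% as higher in Ly6Chigh cells. Spn measured 231, 469 and 335 CPM in Ly6Clow and 66.3, 30.5 and 55.8 CPM in Ly6Chigh monocytes, 6.77-fold apart with no overlap (log2 fold change of Ly6Chigh minus Ly6Clow -2.76, SE 0.49, edgeR adjusted p = 0.00124). Itgax measured 73.6, 495 and 175 CPM in Ly6Clow monocytes against 43.3, 2.93 and 16.9 CPM (11.8-fold, log2 fold change -3.56, SE 0.63, edgeR adjusted p = 0.00114), although both populations were gated for low CD11c. Pecam1 measured 36.3, 91.4 and 41.1 CPM against 13.5, 12.3 and 5.43 CPM (5.50-fold, log2 fold change -2.46, SE 0.52, edgeR adjusted p = 0.00537). The groups did not overlap for any of these 3 genes. Ly6Clow monocytes of mouse 23, the replicate that stood apart, had the highest Ly6Clow value of all 3. Without it the log2 fold changes of Spn, Itgax and Pecam1 were -2.44, -2.55 and -1.90 (edgeR adjusted p = 0.00442, 0.0084 and 0.0263). That of Itgax was -4.40 without Ly6Chigh monocytes of mouse 22 and -2.96 without those of mouse 23.

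Icam2 measured 194, 109 and 64.5 CPM in Ly6Clow monocytes against 31.5, 36.3 and 34.3 CPM in Ly6Chigh monocytes (log2 fold change -1.85, SE 0.51, edgeR adjusted p = 0.0295, with the direction reversed under the spike-in scaling, log2 fold change 0.25), and Itga6 11.8, 26.2 and 3.26 CPM against 0, 0 and 1.46 CPM (log2 fold change -4.24, SE 1.08, adjusted p = 0.0185). The αL chain Itgal had higher means in Ly6Clow cells (1488 ± 645 against 800.3 ± 181 CPM) and did not pass (adjusted p = 0.116), and the fibronectin receptor chain Itga5 had lower ones (56.0 ± 15.8 against 163 ± 53.2 CPM, adjusted p = 0.0601), being called with the mouse as a replicate block (adjusted p = 0.0442). Markers of T and NK cells, B cells and dendritic cells were higher in the Ly6Clow replicates, with the ranges given above and no overlap with Ly6Chigh replicates in any of the 3 lists. Their part in these calls was not tested. Without mouse 26 in the brain populations, the call of Icam2 was lost (adjusted p = 0.065). It was also lost without any single Ly6Chigh replicate or Ly6Clow monocytes of mouse 22 (adjusted p up to 0.17), Itga6 without Ly6Chigh monocytes of mouse 22 or 23 or Ly6Clow monocytes of mouse 23 (up to 0.105, with a log2 fold change of -3.24 and adjusted p of 0.0988 without the last), and Pecam1 without Ly6Chigh monocytes of mouse 24 (adjusted p = 0.0541). In the blood, Skap1 was the gene of the activation list that passed and Tgfbi that of the ligand list, lower and higher in Ly6Chigh cells. From the list of further adhesion genes, Cd36 passed as lower in Ly6Chigh cells. When the 2 blood populations were fitted alone, 0 of the tested members and 0 of 8928 genes were called, and with the spike-in scaling, under which the all-gene median log2 fold change was 1.69 where it had been 0.02, 0 members and 0.311% of all tested genes were called.

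Between the brain populations few members differed. Cd44 was the single member that passed between GFPneg glioma monocytes (379.7, 499 and 559 CPM) and GFPneg CCR2low macrophages (184, 178, 118 and 246 CPM), 2.64-fold higher in the monocytes with no overlap (log2 fold change 1.40, SE 0.28, edgeR adjusted p = 0.00764), in a comparison that called 1.21% of all tested genes. Vcam1 was lower in the monocytes (67.9 ± 24.01 against 285 ± 217 CPM) and missed the threshold (adjusted p = 0.0627), but passed with the mouse as a replicate block (log2 fold change -1.98, adjusted p = 0.00414) and by DESeq2 (adjusted p = 0.00513), and without mouse 26 (adjusted p = 0.0386). Microglial markers summed to 1156 to 2403 CPM in these monocytes and 2621 to 7254 CPM in the CCR2low macrophages, without overlap. Their part in the values of Cd44 and Vcam1 was not tested. The call of Cd44 was lost when only the first of the 2 libraries of GFPpos glioma monocytes of mouse 22 entered the fit (adjusted p = 0.064) and under the spike-in scaling (adjusted p = 1). Between GFPneg glioma monocytes and GFPneg CCR2high macrophages 0 members were called by edgeR and by DESeq2. At an unadjusted edgeR p under 0.05 there were 5 (Itgax, Itga9, Vcam1, Ceacam1 and Cd44), beside 622 of all 11566 genes. The same comparison called 0.182% of all tested genes. Cd44 measured 263 ± 39.5 CPM in these macrophages, between the other two populations (adjusted p = 0.331).

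Between GFPneg CCR2high and CCR2low macrophages 0 members were called by edgeR and by DESeq2, in a comparison where edgeR called 0% of all tested genes. At an unadjusted edgeR p under 0.05 there were 2 (Itgb3 and Selp), beside 276 of all 11566 genes. Itgb2 measured 1168 ± 268 and 1039 ± 198 CPM in these populations, and the 95% interval of its log2 fold change was -0.30 to 0.63. For a low gene such as Itgb3 it was -3.77 to -0.23.

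Cells that carried tumor GFP were compared with those that did not in each brain population. None of the 3 comparisons called a member, by edgeR or by DESeq2, and edgeR called 0% of all tested genes in each. At an unadjusted p under 0.05 there were 7 members in glioma monocytes, 1 in CCR2high and 2 in CCR2low macrophages, beside 739, 69 and 184 of all 11566 genes. DESeq2 called 19, 1 and 5 of all genes. Under the spike-in scaling the all-gene median log2 fold change was -1.37, -0.27 and 0.36, and the directions given here are those of the trimmed-mean scaling. Vcam1 had the higher mean in GFPpos cells of all 3 populations. It measured 218, 146 and 118 CPM in GFPpos against 60.2, 48.7 and 94.8 CPM in GFPneg glioma monocytes, 422, 346, 243 and 595 against 91.5, 180.3, 115 and 357 CPM in CCR2high and 388, 439, 318 and 860.5 against 231, 153, 151 and 606 CPM in CCR2low macrophages. In all 11 mouse and population pairs the GFPpos value was the higher one. These pairs come from 4 mice and are not independent, and the share of all tested genes with such a run was not counted. The edgeR adjusted p was 0.739, 1 and 1, and the 95% interval of the log2 fold change was 0.11 to 2.38, 0.14 to 2.07 and -0.15 to 1.77. Microglial markers summed to 2064 to 2672 CPM in GFPpos and 1156 to 2403 CPM in GFPneg glioma monocytes, and to 1933 to 3311 and 1715 to 3563 CPM in CCR2high and 2444 to 3649.7 and 2621 to 7254 CPM in CCR2low macrophages. Their ranges overlapped in all 3, with medians of 2265, 2520 and 2831 CPM in GFPpos and 1303, 1803 and 3110 CPM in GFPneg cells. The medians of the endothelial markers were 121, 37.0 and 129 CPM against 139, 57.8 and 70.5 CPM. The part of both cell types was not tested.

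Itgb7 had the lower mean in GFPpos cells of all 3 populations, at 119.9, 88.5 and 148 against 406, 474 and 319 CPM in glioma monocytes without overlap (log2 fold change -1.75, SE 0.53, edgeR adjusted p = 0.639). In CCR2high macrophages the means were 174 ± 99.3 and 242 ± 97.9 CPM, and in CCR2low macrophages 142 ± 54.8 and 265 ± 74.9 CPM. The GFPpos value was the lower one in all 11 mouse and population pairs, again not independent, and none of these differences passed the adjusted test. T and NK cell markers had median sums of 652, 436 and 355 CPM in GFPpos, against 431, 570 and 780 CPM in GFPneg cells. B cell markers had 175, 86.4 and 144 CPM, against 102, 77.6 and 360 CPM. The order is glioma monocytes, CCR2high and CCR2low macrophages, and the part of these cells was not tested. Of the 32 members, Vcam1 and Itgb7 alone had 1 direction in all 11 pairs. How many of all tested genes did so was not counted, so no result about the members is drawn from it. Cd44, Alcam, Itgal, Itga5 and Itga9 were the others under an unadjusted p of 0.05 in glioma monocytes, the first 4 with lower and Itga9 with higher values in GFPpos cells. The test of whether the GFP difference itself differed between populations called 0 members by edgeR. At an unadjusted edgeR p under 0.05 there were 0, 5 and 1 for the 3 pairs of populations, beside 272, 394 and 84 of all 11566 genes. The GFPpos glioma monocytes of mouse 22 were sequenced as 2 libraries, which were summed.

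**Figure D4:**
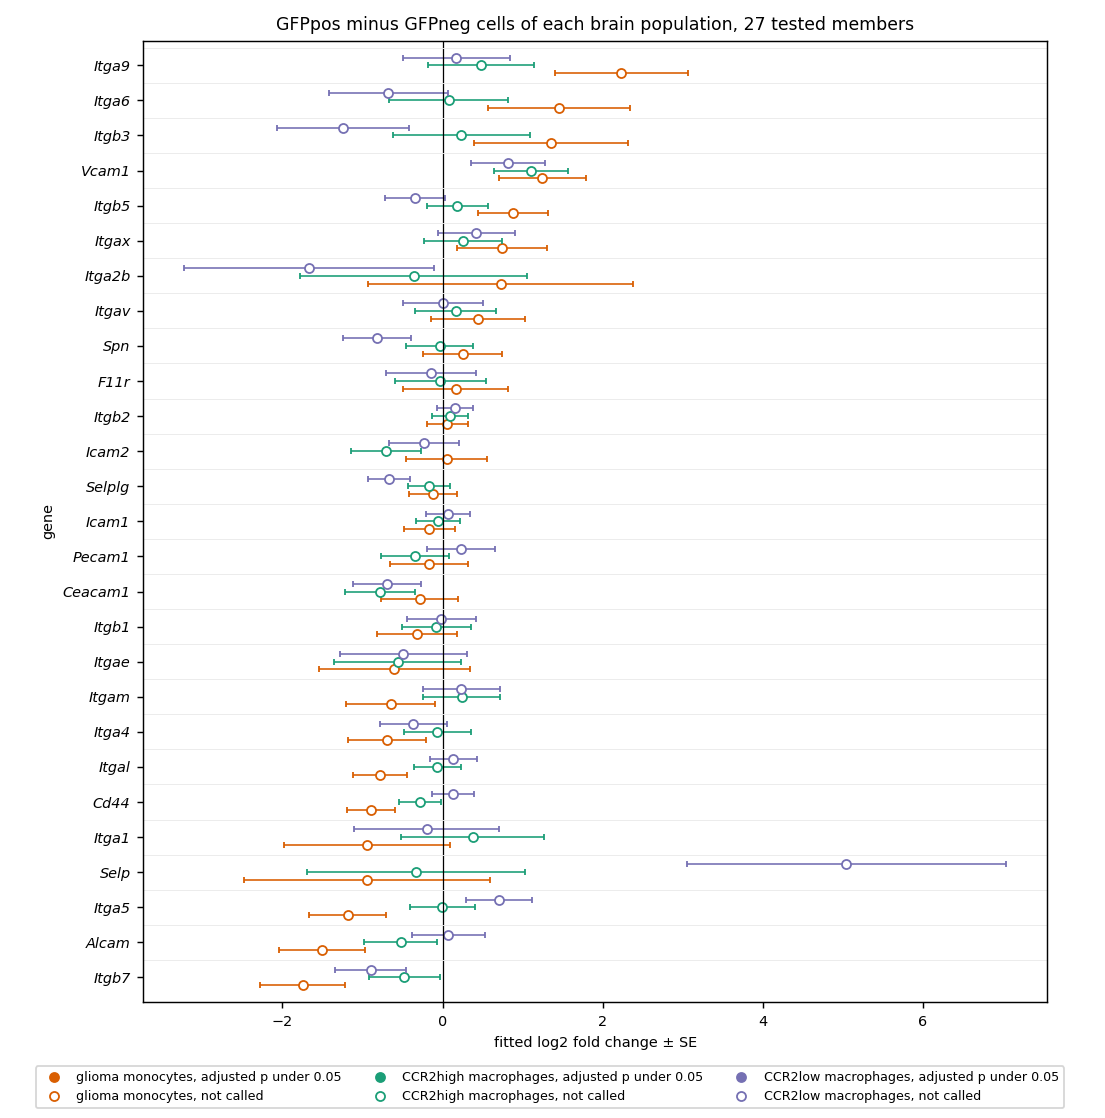
Fitted log2 fold change (x axis) with its standard error for each tested member (y axis), GFPpos minus GFPneg cells, in glioma monocytes and in CCR2high and CCR2low macrophages. All points are open, since no member passed at an adjusted p under 0.05, and Vcam1 lies above 0 and Itgb7 below 0 in all 3 populations.

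Integrins act through proteins that switch them on and link them to actin, and 25 of 26 genes of this kind were tested. Against Ly6Chigh blood monocytes, 4 rose and 4 fell in GFPneg glioma monocytes, 3 rose and 9 fell in CCR2high macrophages, and 4 rose and 8 fell in CCR2low macrophages. Of all tested genes, 11.1%, 12.7% and 14.1% were called higher in these comparisons and 2.68%, 5.14% and 6.09% lower. The median log2 fold change of the list was -0.44, -0.36 and -0.80, beside the medians of all tested genes given above. Rasgrp2, Rassf5, Apbb1ip and Lims1 fell in all 3. Rasgrp2, whose product CalDAG-GEFI loads the GTPase Rap1, fell from 95.6 ± 13.02 CPM (SD, n = 3) to 13.8 ± 4.27, 8.52 ± 1.72 and 10.1 ± 10.9 CPM (edgeR adjusted p = 0.00283, 7.86e-05 and 0.000146). Rassf5, encoding the Rap1 effector RAPL, fell from 539 ± 88.4 to 171 ± 21.6, 171 ± 20.7 and 186 ± 21.4 CPM, and Apbb1ip, encoding the Rap1 effector RIAM, from 144 ± 28.6 to 47.2 ± 7.30, 54.4 ± 3.81 and 58.2 ± 24.5 CPM. These 3 genes of the Rap1 route were lower in the same populations as Itgal and Itga4. Of the Rap1 genes themselves, Rap1a fell in the macrophages alone and Rap1b was not called.

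Fermt3 and Tln1, whose products act last, on the tail of the integrin, did not pass. Fermt3, the kindlin of blood cells, measured 546 ± 11.8 CPM in Ly6Chigh monocytes and 457 ± 109.8, 499.7 ± 93.1 and 459 ± 145 CPM in the 3 GFPneg brain populations (edgeR adjusted p = 0.681, 0.809 and 0.592). Tln1, encoding talin, varied widely (738 ± 571 CPM in Ly6Chigh monocytes, 256 ± 139.9 CPM in CCR2high macrophages, adjusted p = 0.0735). Parvg, a parvin of blood cells that links integrins to actin, rose from 56.0 ± 19.2 to 140.4 ± 30.8, 192 ± 49.3 and 202 ± 40.0 CPM (edgeR adjusted p = 0.00451, 0.000124 and 6.96e-05). Fermt2, a kindlin of non-blood cells at 0 in Ly6Chigh monocytes, and Skap1, a T cell adaptor, also rose in all 3, and Tln2, a second talin, in glioma monocytes and CCR2low macrophages. T cell markers were higher in the same populations without overlap, and endothelial markers with overlap in the macrophages, and their part was not tested.

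Of 17 matrix and soluble ligands of integrins, all tested, 4, 2 and 2 rose and 0, 1 and 1 fell in the 3 comparisons. Of all tested genes, 11.1%, 12.7% and 14.1% were called higher there and 2.68%, 5.14% and 6.09% lower. No median is given for this list, since most of its genes were at or near 0 in blood. Spp1, which encodes osteopontin, a ligand of αv and α9 integrins, rose in all 3, from 1.71 ± 2.43 CPM to 780.2 ± 911, 1107 ± 607 and 1224 ± 573 CPM (edgeR adjusted p = 1.01e-06, 3.87e-07 and 2.84e-07). Fn1, the fibronectin bound by α5β1 and α4β1, was abundant in Ly6Chigh monocytes at 3219 ± 1784 CPM and fell to 271 ± 276 and 213 ± 219 CPM in GFPneg CCR2high and CCR2low macrophages (edgeR adjusted p = 0.0141 and 0.00731). Tgfbi, an RGD-containing matrix protein, rose in glioma monocytes and CCR2high macrophages, to 4364 ± 696 and 3470.3 ± 648 CPM from 1602 ± 286 CPM. Ecm1 and Thbs1 passed in glioma monocytes and Vtn in CCR2low macrophages.

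Of 18 further adhesion genes of leukocytes and vessel wall in the table, 10 were tested, and 3 rose in each of the 3 comparisons. Of all tested genes, 11.1%, 12.7% and 14.1% were called higher there. The median log2 fold change of the 10 was 0.19, 0.02 and 0.28. Jam3 rose from 0.452 ± 0.211 CPM to 22.8 ± 15.4, 14.2 ± 6.51 and 20.8 ± 19.6 CPM (edgeR adjusted p = 0.00118, 0.00212 and 0.000768), and Jam2 and Mcam, from means of 0.375 and 0 CPM in Ly6Chigh monocytes, to means between 7.46 and 51.1 CPM. All 3 are genes of endothelium and vessel wall, and the part of such cells was not tested.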

How the data were processed

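RNA from sorted cells was sequenced in 30 libraries, which stand for 28 replicates of 8 populations from 4 mice. According to the study's methods the reads were aligned to mm10 with STAR, and htseq-count was run in its strict intersection mode. The submitters' processing notes list Picard 1.8.4 for removing duplicate reads, HTSeq, DESeq2, R 3.2.3 and the annotation GRCm38.p3. The strand setting of the counting is not given in the sources used here. The authors deposited raw read counts per gene symbol, with 92 spike-in RNAs and the counter's summary lines in the same tables. The summary lines and spike-ins were kept out of library sizes. Reads with no feature made up 6.28% to 17.4%, ambiguous reads 1.58% to 1.90% and spike-ins 0.284% to 13.3% of the counted reads. No molecular identifiers were used, so the floor of 3 counts covers counting error only.

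Replicates were grouped by the labels. The first library of Ly6Clow blood monocytes of mouse 23, with 3460 genes at 5 or more reads, missed the study's rule of 6000 such genes and was replaced by its second library. The 2 libraries of GFPpos glioma monocytes of mouse 22 were summed. Counts were tested in R 4.3.3 with edgeR 4.0.16 (filterByExpr, trimmed-mean scaling, 1 robust quasi-likelihood fit over the 8 populations), and p-values were adjusted after Benjamini and Hochberg over all 11566 genes tested, with a threshold of 0.05. The procedure was tested on simulated counts. CPM are counts scaled to a common library size after trimmed-mean normalization, and CPM per kb were divided by the summed length of the exons in GENCODE vM21. Promoter sequences came from RefSeq. Gene positions are those of GRCm38, and overlaps of exons were taken from GENCODE vM21, not from the annotation of the counting.

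The 36 pairs of replicates within populations had a Spearman correlation of 0.711 to 0.947 and differed by more than sampling noise. Same-numbered replicates came from the same mouse by their titles. Deviations from the population means correlated at a median of 0.136 over 86 pairs from the same mouse, ranging from -0.0971 to 0.674, and at -0.0303 over 256 pairs from different mice. The numbers pair the samples because the animal is the same, and a fit with the mouse as a replicate block is given where it changes a call. Alternatives were DESeq2 size factors, scaling to spike-ins, no filter, at least 10 counts in every library, the replicate block, DESeq2 1.42.0, the compared populations alone, other uses of the repeated libraries, leaving out single replicates, and, added after seeing the data, leaving out mouse 26.

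The members and the lists of other genes were chosen with earlier results of these data known. For 1 gene of these lists, the results are not reported here. Every member was accounted for, members called in any comparison were named with values, the largest changes in full, and the rest by their range. All 10 comparisons are between the populations, and no columns of per-sample values were set aside.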

Additional observations from a re-analysis of the deposited data

Results flagged for a closer look

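In 4 of 108 groups of 4 replicates, 1 per member and macrophage population, a single replicate stood far from the others by Dixon's criterion, where chance alone gives about 1 in 20. Itgb1 measured 118.5 CPM in GFPpos CCR2high macrophages of mouse 26, while the other 3 replicates lay between 300.4 and 342.9 CPM. Itga5 measured 61.7 CPM in GFPneg CCR2high macrophages of mouse 24, with the others between 139.8 and 160.6 CPM. Itgav measured 11.6 CPM in GFPneg CCR2low macrophages of mouse 22, with the others between 39.3 and 49.6 CPM. Icam1 measured 236 CPM in GFPpos CCR2low macrophages of mouse 26, with the others between 355.6 and 376 CPM. Itgb1, Itga5 and Itgav passed in no comparison, and Icam1 passed only between glioma monocytes and Ly6Chigh blood monocytes.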

How the results depend on the processing

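The 51 calls of members gave 871 values under the alternatives, of which 762 kept direction and call, 108 kept direction and missed the threshold, and 1 reversed. The reversal was Icam2 between the blood populations, with a log2 fold change of 0.25 (adjusted p = 0.882) under the spike-in scaling, which moved the median of all genes there to 1.69. That scaling called 0 members in blood in place of 5, 3 in glioma monocytes in place of 14, 6 in CCR2high macrophages in place of 15, 5 in CCR2low macrophages in place of 16, 0 between glioma monocytes and CCR2low macrophages in place of 1, and 8 in place of 19 in the test over all populations. The cause was not tested. A minimum of 10 counts in every library left 16 members to test and called 3, 7, 8 and 10 in the first 4 comparisons and 11 over all populations. The blood populations fitted alone gave 0 calls. Between glioma monocytes and CCR2low macrophages, the replicate block, DESeq2 and leaving out mouse 26 each called 2 members, and using the first library alone of GFPpos glioma monocytes of mouse 22 called 0. With the replicate block, 6, 13, 16 and 17 members were called in the 4 comparisons with blood and 20 over all populations. The blocked values of Selp, Itga5, Itga1 and Vcam1 stand with their results, and the block changed no other call of a member between a pair of populations, while Itga5 was added in the test over all populations. Leaving out 1 replicate gave 3 to 9 calls in blood (3 of the 5 calls lost at least once, and 9 without Ly6Clow monocytes of mouse 24), 8 to 11 in glioma monocytes, 14 to 15 in CCR2high macrophages, 12 to 16 in CCR2low macrophages, 1 to 2 between glioma monocytes and CCR2low macrophages, where the second was Vcam1 without GFPneg CCR2low macrophages of mouse 24, and 16 to 20 over all populations. Of the counts over all genes, that of the blood comparison, 649, became 36 under the spike-in scaling, 0 with the compared populations alone, 1369 by DESeq2, 397 without a filter, 400 with the first of the repeated libraries alone and 224 to 2444 with 1 replicate left out. The spike-in scaling and the minimum of 10 counts gave 398 and 631 genes in place of 1596 in glioma monocytes, 523 and 986 in place of 2060 in CCR2high macrophages, 591 and 1034 in place of 2340 in CCR2low macrophages, and 974 and 1417 over all populations, where DESeq2 gave 4071. With 1 replicate left out the lowest counts in the 3 brain populations were 1018, 1307 and 1541, and leaving out mouse 26 gave 1061 in glioma monocytes. Between glioma monocytes and CCR2low macrophages, 140 genes became 1 with spike-ins, 284 with the block, 274 by DESeq2, 293 with the compared populations alone and as few as 47 with 1 replicate left out. Between glioma monocytes and CCR2high macrophages, 21 became 0, 96, 107, 101 and 6 under the same alternatives, 48 with the minimum of 10 counts and 9 without mouse 26. Between the GFPneg macrophages the block called 3 and DESeq2 8 genes in place of 0. Counts of a few reads, as for Itga6, Itgae, Itga9 and Selp in blood, limit their fold changes.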

Other observations

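The brain replicates of mouse 26 were the highest of their population for Itga1 and Itgam in all 6 brain populations, and for Cd44, Itga4, Itgav, Pecam1 and Vcam1 in 5 of the 6. F11r, Itgb7 and Selplg were lowest in mouse 26 in at least 5. Over all 11566 tested genes, mouse 26 was highest in all 6 populations for 4.53% and in at least 5 for 12.5%, and lowest in all 6 for 2.62% and in at least 5 for 7.46%. For mouse 24 the shares in all 6 were 0.830% (Selplg among the members) and 1.44%, and for mouse 22 they were 0.536% and 0.251%. No blood of mouse 26 was sequenced, so it could not be compared with its own monocytes.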
